A study of Homo sapiens with 12 samples.

Results

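The 7 genes described here encode the core transcription factors of the epithelial-to-mesenchymal transition (EMT), the process in which epithelial cells loosen their junctions and take on mesenchymal traits. They are the zinc finger repressors SNAI1, SNAI2 and SNAI3, the zinc finger and homeodomain repressors ZEB1 and ZEB2, and the basic helix-loop-helix factors TWIST1 and TWIST2. They were picked by gene symbol, and their Ensembl identifiers gave 7 of the 63152 rows of the count table. All 7 were among the 16839 genes with enough reads to be tested, SNAI3 only through its level at the higher dose.

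SNAI and ZEB proteins bind a DNA element called the E-box and recruit corepressors that silence epithelial genes, with the E-cadherin gene CDH1 as the textbook target. TWIST proteins bind E-boxes as dimers with E proteins such as TCF3 and can activate as well as repress. In carcinoma cells of the liver these factors are known for their link to invasion and to poor differentiation, and both SNAI1 and TWIST1 are known to respond to hypoxia through hypoxia-inducible factor 1 (HIF-1).

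The study asked whether acriflavine, a blend of DNA-intercalating acridines that keeps the HIF-1 subunits apart, counters EMT. Poly-A RNA was sequenced from 12 cultures of a human liver tumour line, with 4 biological replicates per group. The groups were control, 2.5 µM acriflavine and 5 µM acriflavine. Cultures were near confluence, and drug or vehicle in fresh medium acted for 24 h. One label gives the control cultures as having had no treatment, whereas the protocol names the solvent DMSO as vehicle. The cell line label reads HepG2, a line from a human hepatoblastoma. The sample descriptions name HepG2S1, a derivative that had been kept in rising amounts of the kinase inhibitor sorafenib, in which case all 3 groups share 1 derived line.

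The control libraries held between 11891849 and 14024568 counts each, the 2.5 µM libraries between 13095641 and 15115510, and the 5 µM libraries between 10733567 and 15116842. The first principal component held 75.9% of the variance and set the groups apart. Defining liver markers were close to absent: albumin (ALB) had 0 counts in the controls, 0 at 2.5 µM and 2 at 5 µM, summed over 4 libraries, and alpha-fetoprotein (AFP) had 0, 1 and 1. The 14 hepatocyte markers summed to 9.75 to 12.8 CPM (counts scaled to a common library total) per library at 5 µM and 0.953 to 1.95 CPM in the controls, and the 4 blood cell markers to 3.50 to 4.32 CPM at 5 µM and 0.358 to 1.02 CPM in the controls. The 10 fibroblast markers summed to 635 to 789 CPM in the controls, 560 to 618 CPM at 2.5 µM and 572 to 612 CPM at 5 µM, with the proteoglycan genes DCN (563 ± 46.8 CPM in the controls, SD, n = 4) and LUM (119 ± 20.6 CPM) on top and COL1A2, COL3A1 and THY1 at 0 counts there. The bile duct keratin KRT7 had 3612 ± 228 CPM in the controls, 3710 ± 208 CPM at 2.5 µM and 1580 ± 135 CPM at 5 µM (SD, n = 4 each), and the 5 bile duct markers, of which SPP1 was at 0 counts in the controls and at 2.5 µM, summed to 3622 to 4074, 3525 to 3991 and 1483 to 1780 CPM in these groups. The values therefore describe the line as sequenced, whose RNA held few of the products that mark HepG2. The part of any admixed cell type in the results below was not tested, and in bulk RNA fewer cells of a type and less RNA per cell cannot be told apart.

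All 7 repressors were detected in the controls, at levels that spanned a wide range. Levels between genes are compared here as CPM per kilobase of exon, since longer transcripts collect more reads. In the controls the order was TWIST1 (8.16 ± 0.289 CPM per kb), SNAI2 (5.70 ± 0.594), SNAI1 (3.27 ± 0.628), ZEB1 (2.96 ± 0.451), TWIST2 (0.583 ± 0.193), ZEB2 (0.275 ± 0.0327) and SNAI3 (0.141 ± 0.0662), each as mean ± SD of 4 libraries. The libraries of SNAI1 and ZEB1 overlapped, and all other neighbours in that order were apart. At 2.5 µM the order was TWIST1 (8.62 ± 0.625), SNAI2 (7.90 ± 0.402), ZEB1 (3.13 ± 0.263), SNAI1 (1.65 ± 0.101), TWIST2 (0.836 ± 0.141), SNAI3 (0.357 ± 0.221) and ZEB2 (0.328 ± 0.0281), with overlap between TWIST1 and SNAI2 and between SNAI3 and ZEB2. At 5 µM it was TWIST1 (9.12 ± 0.729), SNAI1 (7.36 ± 1.07), SNAI2 (5.22 ± 0.667), ZEB1 (2.20 ± 0.283), TWIST2 (1.56 ± 0.424), SNAI3 (0.592 ± 0.0608) and ZEB2 (0.247 ± 0.0329), with overlap between TWIST1 and SNAI1 and between ZEB1 and TWIST2. SNAI1 thus held rank 3 in the controls, rank 4 at 2.5 µM and rank 2 at 5 µM, while TWIST1 had rank 1 in all 3 groups. Scaled by the length of the principal transcript instead of all exons, SNAI1 and ZEB1 changed places in the controls, TWIST1 and SNAI2 at 2.5 µM, and ZEB2 and SNAI3 at both doses.

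**Figure D1:**
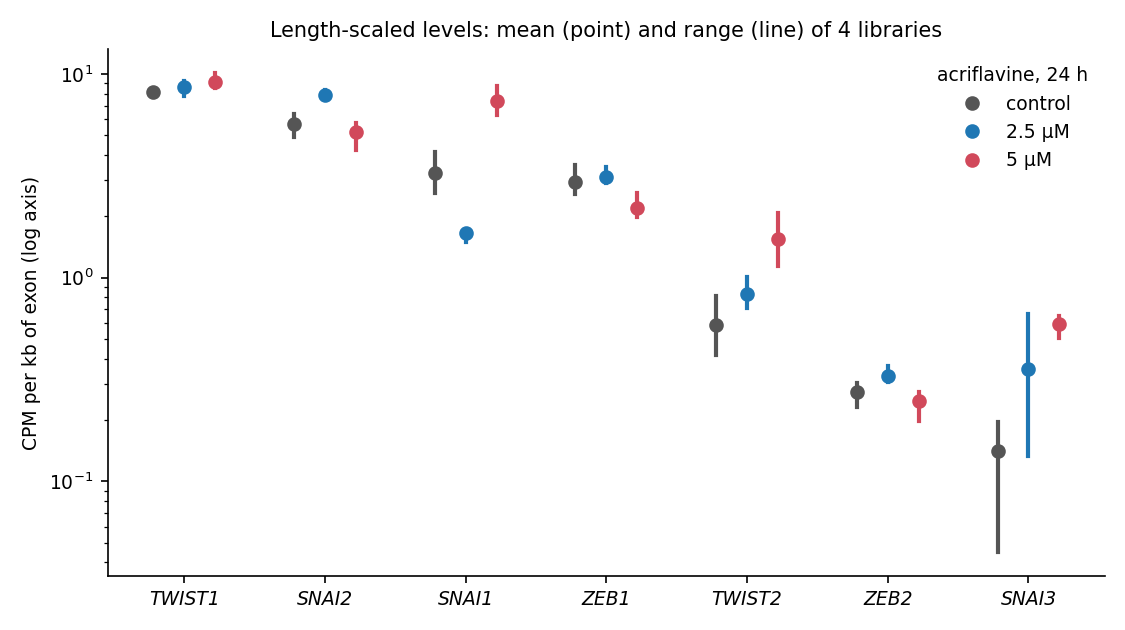
Length-scaled level of each repressor as CPM per kilobase of exon on a log axis, for control, 2.5 µM and 5 µM acriflavine at 24 h. Points are means and lines the range of 4 libraries; TWIST1 is at 8.16 to 9.12 CPM per kb in all 3 groups, and SNAI1 moves between 1.65 and 7.36.

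Across the 2 doses the 7 genes did not move as a block. Against control, 5 µM raised SNAI1 and TWIST2 and lowered ZEB1, whereas 2.5 µM lowered SNAI1 and raised SNAI2. SNAI3 was called higher at both doses, but it entered the test only through its level at 5 µM and so had to differ, and it is counted in the calls below with that limit. Between the doses, SNAI1 and TWIST2 were higher at 5 µM and SNAI2, ZEB1 and ZEB2 were lower. TWIST1 passed the test in no comparison. Each call is an adjusted p under 0.05 from the quasi-likelihood test of edgeR over all 16839 genes. At 5 µM against control this called 4 of the 7 (3 higher, 1 lower), where 78.2% of all genes were called. At 2.5 µM against control it called 3 of the 7 (2 higher, 1 lower), where 59.1% of all genes were called and 30.7% were higher, and at 5 µM against 2.5 µM it called 5 of the 7 (2 higher, 3 lower), beside 68.4% of all genes called and 33.6% higher. The 4 libraries of a group lay apart from the 4 of the other for 4, 3 and 5 repressors in these 3 comparisons, and for 70.8%, 50.5% and 62.1% of all genes. The counts of calls are near or under what the whole transcriptome gave. The median log2 fold change of the 7 was 0.16, 0.24 and 0.09 in these 3 comparisons, beside -0.01, 0.02 and -0.01 for all genes. The first 2 comparisons share the control libraries, and each is given by its own values.

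**Figure D2:**
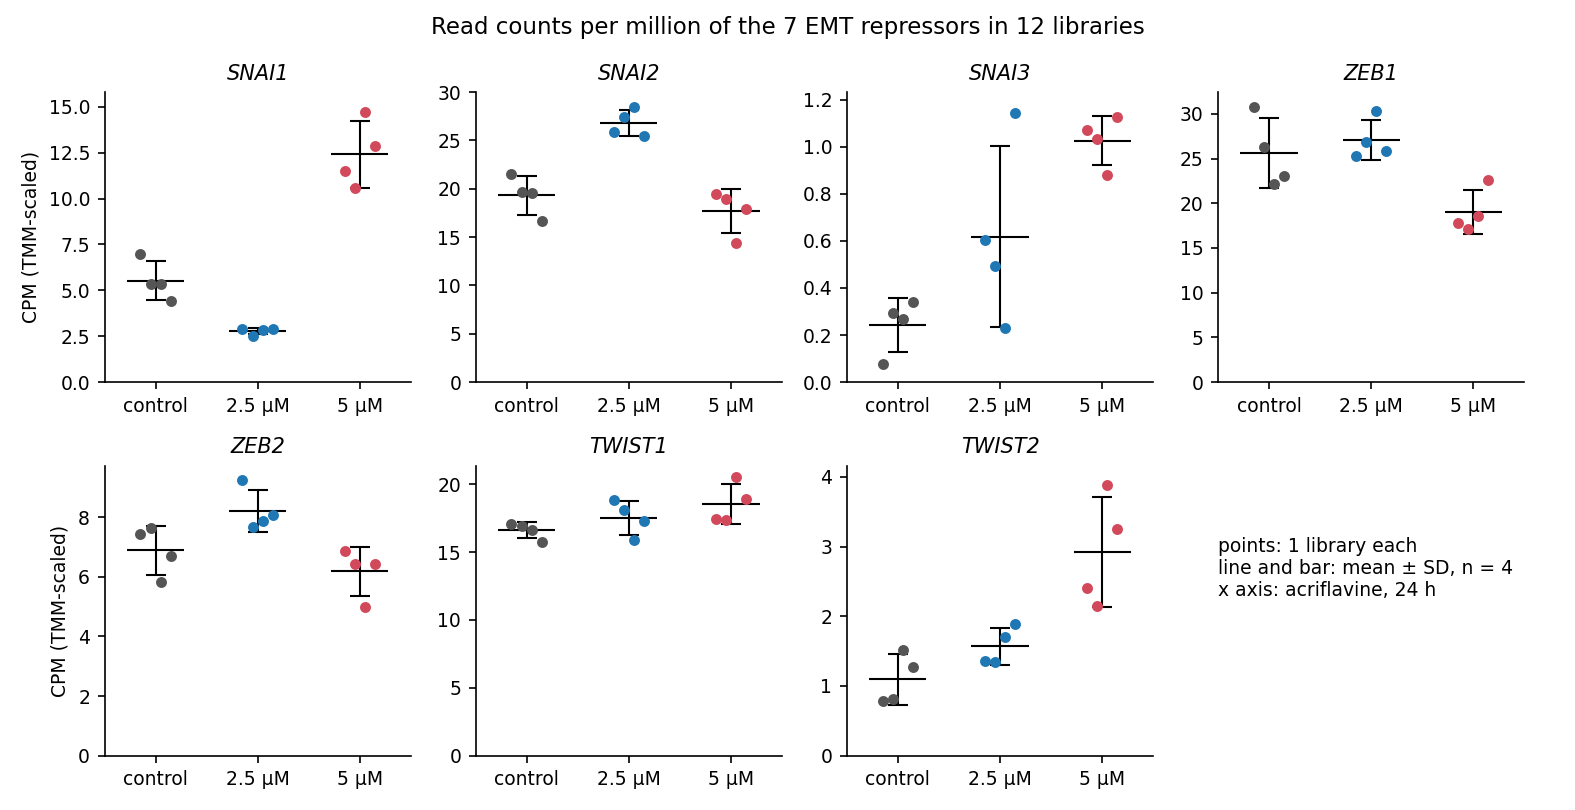
CPM of the 7 repressors in each of 12 libraries, by acriflavine dose (control, 2.5 µM, 5 µM), each y axis starting at 0. Points are single libraries and lines with bars mean ± SD (n = 4); SNAI1 is lowest at 2.5 µM and highest at 5 µM without overlap, SNAI2 highest at 2.5 µM.

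SNAI1, also called Snail, binds the CDH1 promoter directly and can induce EMT when expressed in epithelial cell lines. Its gene (ENSG00000124216, chromosome 20) had 6.95, 5.35, 5.37 and 4.40 CPM in the controls, 2.88, 2.53, 2.85 and 2.89 CPM at 2.5 µM and 11.5, 10.6, 14.7 and 12.9 CPM at 5 µM. All 4 libraries at 2.5 µM lay under every control library and all 4 at 5 µM lay above, so the 3 groups did not overlap. Behind these values stood 274 counts in the controls, 154 at 2.5 µM and 659 at 5 µM, summed over 4 libraries. SNAI1 was 2.25-fold higher at 5 µM than in the controls (log2 fold change 1.17 ± 0.13 SE, adjusted p = 3.66e-10 by edgeR). At 2.5 µM it was lower than in the controls (-0.99 ± 0.16, adjusted p = 3.56e-06), at 2.79 ± 0.171 CPM against 5.52 ± 1.06 CPM. At 5 µM it was 4.47-fold higher than at 2.5 µM (2.16 ± 0.14, adjusted p = 4.26e-15).

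A dose series can also be read as 2 steps, the change between 2.5 and 5 µM minus the change between control and 2.5 µM. This difference was 3.15 ± 0.27 on the log2 scale for SNAI1 (adjusted p = 2.04e-11 by edgeR). SNAI2, ZEB1 and ZEB2 also had unequal steps, in the opposite direction: -1.07 ± 0.15 for SNAI2 (adjusted p = 3.76e-07), -0.58 ± 0.16 for ZEB1 (0.00417) and -0.66 ± 0.21 for ZEB2 (0.00890). The last of these missed the threshold without replicate 1 of 2.5 µM (adjusted p = 0.0543). The steps of SNAI3, TWIST1 and TWIST2 did not pass, with 95% intervals of -2.04 to 0.74, -0.28 to 0.29 and -0.48 to 1.21. The test thus called 4 of 7, where 48.6% of all genes were called.

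SNAI2, also called Slug, is the family member known for neural crest migration in chick embryos and for repressing CDH1 and junction genes in breast and skin cells. Its gene (ENSG00000019549) had 21.6, 19.6, 19.5 and 16.7 CPM in the controls, 25.9, 27.4, 28.4 and 25.5 CPM at 2.5 µM and 19.4, 19.0, 14.4 and 17.9 CPM at 5 µM. The 4 libraries at 2.5 µM lay above all 8 others, and those at 5 µM overlapped the controls. SNAI2 rose 1.38-fold at 2.5 µM over control (0.47 ± 0.09, adjusted p = 2.65e-05 by edgeR) and was lower at 5 µM than at 2.5 µM (-0.60 ± 0.09, adjusted p = 3.20e-07). At 5 µM against control it did not pass (-0.14 ± 0.09, 95% interval -0.32 to 0.05, adjusted p = 0.178). Without control replicate 4, whose level was the lowest of the controls, that last comparison passed (-0.21, adjusted p = 0.0442).

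SNAI3, or Smuc, is the least studied of the family, and in mice it is known from skeletal muscle and blood cell development. Its gene (ENSG00000185669, chromosome 16) had few reads. The counts were 1, 4, 3 and 4 in the controls, 8, 7, 3 and 17 at 2.5 µM and 12, 12, 12 and 18 at 5 µM. All 5 µM libraries were above all controls, and the 2.5 µM libraries reached from the controls' range to above that of 5 µM. Against the filter's level of 0.759 CPM, SNAI3 reached it in 4 of 4 libraries at 5 µM, 1 of 4 at 2.5 µM and 0 of 4 controls, so a gene that entered the test this way had to differ. Its log2 fold change at 5 µM over control was 2.04 ± 0.44, given without a p for that reason. It was 1.35 ± 0.48 at 2.5 µM over control (adjusted p = 0.0167 by edgeR) and 0.69 ± 0.34 at 5 µM over 2.5 µM (adjusted p = 0.0710). The call at 2.5 µM was lost without control replicate 1 (1.05, adjusted p = 0.0727) or without replicate 4 of 2.5 µM (0.84, adjusted p = 0.175). Without that same library of 2.5 µM the difference between the doses was 1.19. It was the only 2.5 µM library at the filter's level, so without it the doses had to differ and no p is given.

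An antisense gene, SNAI3-AS1, is annotated beside SNAI3, and no source used here gives the strand setting of the counting. Whether reads of 1 gene of the pair were counted for the other can thus not be told. SNAI3-AS1 had 2.50, 3.09, 3.15 and 2.81 CPM at 5 µM and 1.72, 2.49, 2.06 and 1.78 CPM in the controls (0.52 ± 0.19, adjusted p = 0.0161 by edgeR, and 0.0585 without control replicate 1). At 2.5 µM it had 1.21 to 1.97 CPM, which differed from the controls by -0.46 ± 0.22 (adjusted p = 0.0701, and 0.0229 without replicate 2 of 2.5 µM). The antisense gene was thus lowest at 2.5 µM in its means, whereas SNAI3 at 2.5 µM lay between its other groups. The processed copy SNAI1P1, with which SNAI1 could share reads, had 7 counts in the controls, 3 at 2.5 µM and 6 at 5 µM over 4 libraries each, beside 154 or more for SNAI1.

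ZEB1 binds paired E-boxes through a zinc finger cluster at either end of the protein and is known to hold cells in the mesenchymal state in a loop of mutual repression with the miR-200 microRNAs. Its gene (ENSG00000148516, chromosome 10) had 30.8, 26.3, 22.2 and 23.0 CPM in the controls, 25.3, 26.8, 30.4 and 25.9 CPM at 2.5 µM and 17.8, 17.1, 18.5 and 22.6 CPM at 5 µM. Of the 5 µM libraries 3 lay under all others, and replicate 4 of 5 µM lay just above the lowest control. ZEB1 was 0.746 times its control level at 5 µM (-0.42 ± 0.10, adjusted p = 0.000287 by edgeR), at 19.0 ± 2.45 CPM against 25.6 ± 3.90 CPM. Against 2.5 µM, where the libraries did not overlap, it was lower as well (-0.50 ± 0.10, adjusted p = 3.90e-05). At 2.5 µM against control the difference was 0.08 ± 0.09 (95% interval -0.11 to 0.26, adjusted p = 0.498).

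ZEB2, also called SIP1, acts on the same DNA element and is known for its role in neural crest and in blood cell differentiation. Its gene (ENSG00000169554, chromosome 2) had 7.42, 7.62, 5.82 and 6.69 CPM in the controls, 9.24, 7.67, 7.86 and 8.07 CPM at 2.5 µM and 6.86, 6.44, 4.98 and 6.44 CPM at 5 µM. Every 2.5 µM library was above every other library, and the 5 µM and control libraries overlapped. ZEB2 was lower at 5 µM than at 2.5 µM (-0.41 ± 0.12, adjusted p = 0.00338 by edgeR). Neither dose passed against control, with differences of -0.17 ± 0.13 at 5 µM (95% interval -0.42 to 0.08, adjusted p = 0.225) and 0.24 ± 0.12 at 2.5 µM (0.01 to 0.48, adjusted p = 0.0810). That last interval leaves out 0 although the unadjusted p was 0.0511 by edgeR, as intervals here use the normal distribution. The difference at 2.5 µM passed when scaled by library size (0.29, adjusted p = 0.0433).

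ZEB1-AS1, transcribed from the opposite strand next to the ZEB1 start, had 9.53, 8.59, 8.06 and 8.19 CPM at 5 µM, against 7.34, 5.70, 8.01 and 6.52 CPM at 2.5 µM. These groups were just apart (0.32 ± 0.12, adjusted p = 0.0237 by edgeR), in the opposite direction to ZEB1. Without replicate 2 or 4 of 2.5 µM or replicate 1 of 5 µM the adjusted p was 0.124, 0.0544 and 0.0719. Against control, where ZEB1-AS1 had 7.42 ± 1.15 CPM, it did not pass at 5 µM (0.20 ± 0.12, adjusted p = 0.147, and 0.0187 when scaled by library size) or at 2.5 µM (-0.12 ± 0.13, adjusted p = 0.429). ZEB2-AS1 had 1 count in the controls, 1 at 2.5 µM and 2 at 5 µM.

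The miR-200 family is the best known brake on both ZEB mRNAs, and its members pair with them through the seed, bases 2 to 8 of the mature microRNA, here in capitals. The family has 2 seeds that differ in 1 base. The mature sequences, from RefSeq on GRCh38.p14, are shown because the same letters recur in the ZEB transcripts.
miR-200b-3p: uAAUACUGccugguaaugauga
miR-200c-3p: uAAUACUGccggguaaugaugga
miR-429: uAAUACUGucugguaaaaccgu
miR-200a-3p: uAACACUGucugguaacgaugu
miR-141-3p: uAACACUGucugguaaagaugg
The first 3 share the seed AAUACUG and the last 2 the seed AACACUG. The genes of miR-200a, miR-200b and miR-429 lie together on chromosome 1, and those of miR-200c and miR-141 on chromosome 12. The rows of all 5 precursor genes held 0 counts over the 12 libraries, but poly-A libraries of this kind do not capture mature microRNAs, so the family itself was not measured. MIR200CHG, annotated as the host of the chromosome 12 pair, had 0 counts in the controls, 0 at 2.5 µM and 2 at 5 µM.

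Matches to these seeds were counted in the 3′ untranslated region of each repressor's principal transcript in GENCODE 29 (GRCh38), as CAGTATT for the first seed and CAGTGTT for the second, on the transcript's strand. ZEB1 held 5 and 3 in 1938 bases, and ZEB2 held 5 and 4 in 5370 bases. SNAI2 held 1 and 0, and SNAI1, SNAI3, TWIST1 and TWIST2 held none of either. Of 18942 untranslated regions, 26.1% held at least 1 match to either, and 9 held 8 or more, the number in ZEB1. The first match of each kind in both genes is shown with some bases around it and the match in capitals.
ZEB1, CAGTATT: cattgttttatcttatCAGTATTa
ZEB1, CAGTGTT: gcaaaatcatcagaatCAGTGTTt
ZEB2, CAGTATT: ccgcactaccatacatCAGTATTt
ZEB2, CAGTGTT: atgcaaaaattttgtaCAGTGTTa
A match is a description of letters and not a bound site.

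TWIST1 is the helix-loop-helix factor known for cranial mesenchyme and, in mouse mammary tumours, for metastasis. Its gene (ENSG00000122691, chromosome 7) had 17.0, 16.9, 16.7 and 15.7 CPM in the controls, 18.9, 18.1, 15.9 and 17.3 CPM at 2.5 µM and 17.5, 17.4, 20.5 and 18.9 CPM at 5 µM. The 5 µM libraries lay just above all controls and overlapped those of 2.5 µM. The difference at 5 µM over control was 0.16 ± 0.08 (95% interval -0.00 to 0.33, adjusted p = 0.0762 by edgeR). It passed in edgeR under 3 other scalings, with 0.19 and adjusted p = 0.0372 by relative log expression (RLE), 0.21 and 0.0241 by the upper quartile of counts, and 0.30 and 0.00215 by the total of each library. The DESeq2 fit itself gave 0.19 and did not pass (adjusted p = 0.0566). Only the total moved the median of all genes by over 0.1, to 0.12. At 2.5 µM the difference was 0.08 ± 0.08 over control (-0.09 to 0.24, adjusted p = 0.441), and between the doses it was 0.09 ± 0.08 (-0.08 to 0.25, adjusted p = 0.362).

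TWIST2, also called Dermo1, is the paralog known from dermis and bone precursors in mice. Its gene (ENSG00000233608, chromosome 2) had 0.781, 0.806, 1.52 and 1.27 CPM in the controls, 1.36, 1.34, 1.70 and 1.88 CPM at 2.5 µM and 2.41, 2.15, 3.88 and 3.25 CPM at 5 µM. The 5 µM libraries lay above all 8 others, and those of 2.5 µM overlapped the controls. In counts this was 53 in the controls, 87 at 2.5 µM and 157 at 5 µM, summed over 4 libraries. TWIST2 was 2.75-fold higher at 5 µM than in the controls (1.46 ± 0.24, adjusted p = 1.92e-06 by edgeR) and higher than at 2.5 µM (0.91 ± 0.22, adjusted p = 0.000402). At 2.5 µM over control it did not pass (0.55 ± 0.27, adjusted p = 0.0854), and did without control replicate 3 (0.71, adjusted p = 0.0424).

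**Figure D3:**
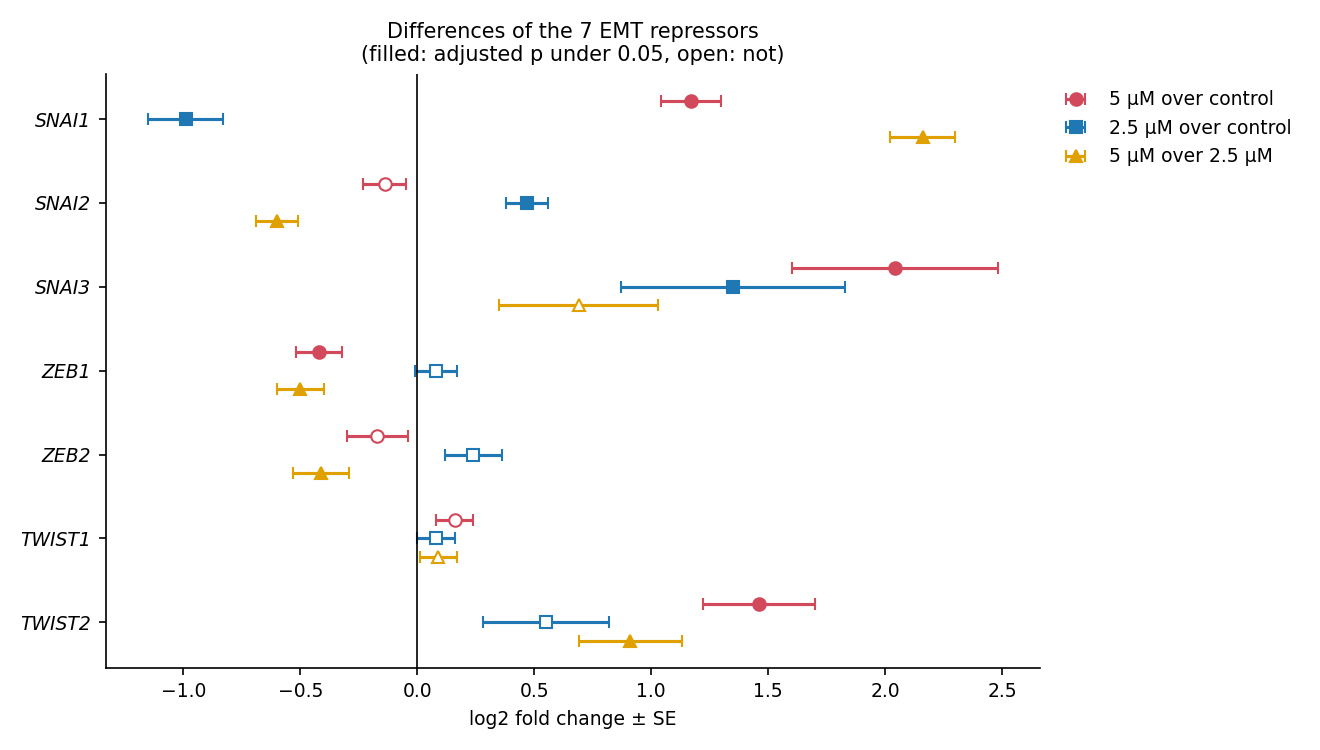
Log2 fold change ± SE of the 7 repressors for 5 µM over control, 2.5 µM over control and 5 µM over 2.5 µM. Filled symbols have an adjusted p under 0.05, and that of SNAI3 at 5 µM over control was set by its entry to the test. SNAI1 is at 1.17, -0.99 and 2.16, while TWIST1 stays between 0.08 and 0.16 with open symbols.

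Ratios of 2 repressors within a library do not depend on how libraries are scaled. The log2 ratio of SNAI1 to SNAI2 counts was -0.51 ± 0.39 at 5 µM, against -1.82 ± 0.13 in the controls (SD, n = 4 each), a difference of 1.30 (exact permutation test, two-sided, p = 0.0286, adjusted p = 0.0343 over 6 tests). At 2.5 µM it was -3.25 ± 0.14, a difference of -1.43 from the controls (exact permutation p = 0.0286, adjusted p = 0.0343). SNAI1 to ZEB1 moved the same ways, with -2.21 ± 0.15 in the controls, -3.26 ± 0.15 at 2.5 µM and -0.62 ± 0.20 at 5 µM. Its differences from the controls were -1.05 at 2.5 µM and 1.60 at 5 µM (exact permutation p = 0.0286 and adjusted p = 0.0343 for both). With 4 libraries against 4, 0.0286 is the smallest p the test can give, and in these 4 comparisons the libraries did not overlap. At 2.5 µM every SNAI1 library lay under and every SNAI2 library above all controls. Their ratio there had to be apart. In the other SNAI1 comparisons too, the ranges of CPM given above leave the ratios of the groups no room to overlap. The p of all 4 therefore add nothing to the calls above.

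TWIST1 and ZEB1 had like counts at 5 µM, with a log2 ratio of -0.03 ± 0.17 there against -0.61 ± 0.18 in the controls, a difference of 0.58 (exact permutation p = 0.0286, adjusted p = 0.0343, n = 4 each). Here as well the CPM ranges of both genes given above leave no overlap, so this p is no separate result. At 2.5 µM the ratio was -0.63 ± 0.22, which overlapped the controls (difference -0.01, exact permutation p = 0.857). The balance between SNAI1 and its relatives thus moved in opposite directions at the 2 doses, and that between TWIST1 and ZEB1 moved at 5 µM, with no call at 2.5 µM. A ratio shows unequal change and does not say which of its 2 genes moved.

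**Figure D4:**
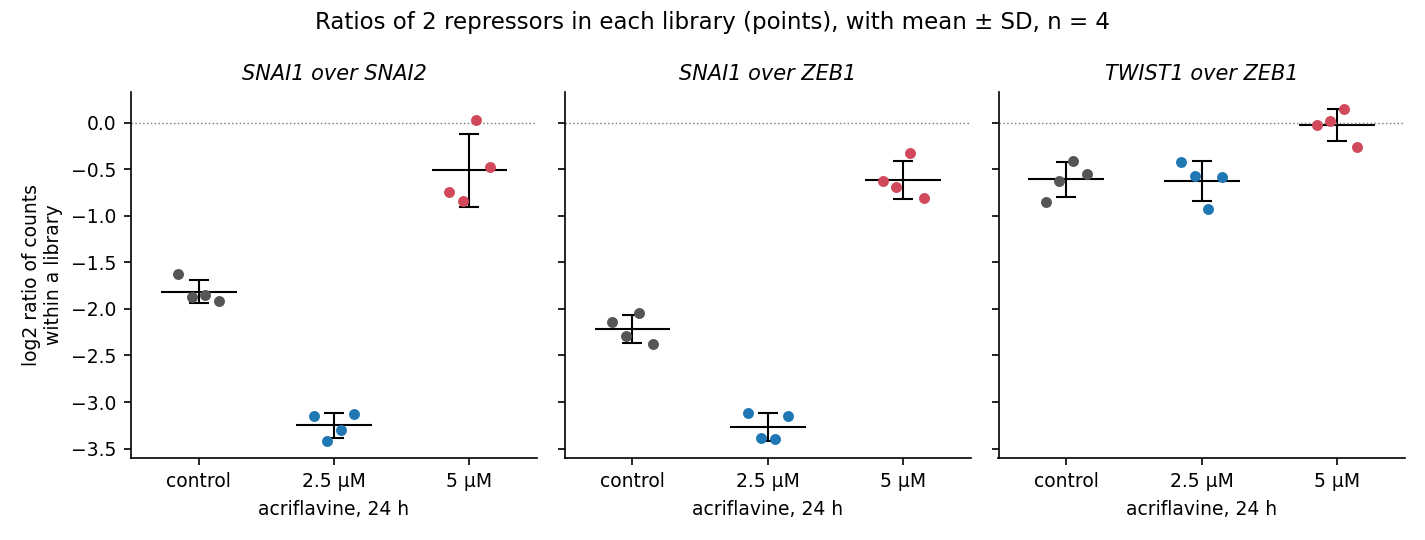
Log2 ratio of the counts of 2 repressors in each library, for control, 2.5 µM and 5 µM acriflavine. Points are libraries and lines with bars mean ± SD (n = 4); both SNAI1 ratios are lowest at 2.5 µM and highest at 5 µM, and TWIST1 over ZEB1 is highest at 5 µM.

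Few genes came close to the pattern of SNAI1. Among the tested genes with a symbol and of at least comparable level (mean log2 CPM no more than 2 under that of the member), 4 had both log2 fold changes over control within 0.25 of those of SNAI1. The 3 with the highest Pearson r of log2 CPM over the 12 libraries were the interleukin receptor gene IL17RB (0.989), the neuronal pentraxin receptor gene NPTXR (0.985) and CYP11A1 (0.918), the enzyme that starts steroid synthesis. The same rule left 564 genes for SNAI2, led by CDKN3 (0.970), KLHL5 and TNPO1, and 1554 for ZEB1, led by the kinesin gene KIF5B (0.943), CENPF (0.942) and SKIC3. For ZEB2 there were 1673, led by SRP9P1 (0.908), CEP135 and SLC25A24. TWIST1 had 2228, led by SPACA9 (0.866), DHRS4-AS1 and HADHBP1, and TWIST2 had 253, led by HOXA10-AS (0.954), ARID5A and RAB15. SNAI3, with its few counts, had 90, led by DST-AS1 (0.977), PRKG1-AS1 and CREB3L1. The window of 0.25 is fixed, so the number of genes left depends on the size of a repressor's changes and on its level. These numbers are therefore not to be compared between repressors. These correlations describe 12 libraries that fall into the same 3 groups, and a gene close to SNAI1 in them shares its group means.

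Many signalling pathways are known to act on these repressors. Of 48 genes of the TGF-beta, Notch, WNT, HIF, NF-kB and growth factor pathways, all tested, 27 were higher and 18 lower at 5 µM over control, with a median log2 fold change of 0.24. Of all 16839 genes tested, 38.7% were higher and 39.4% lower in this comparison, and the counts of the gene groups that follow are to be read beside these shares. The 48 hold inhibitors as well as activators, so their directions mix opposite roles: the TGF-beta inhibitors SMAD6 and SMAD7 (0.88) were higher, and SKI (-1.14), a corepressor of SMADs, was lower. ARNT, the HIF-1 subunit that pairs with HIF1A, had 30.0 ± 2.29 CPM at 5 µM and 101 ± 2.07 CPM in the controls (-1.75 ± 0.06, adjusted p = 2.25e-23 by edgeR). NFKB1, a subunit of NF-kB that is known to stabilise and induce SNAI1, also fell (-2.15 ± 0.08, adjusted p = 3.92e-22), and the WNT receptor FZD7 rose (2.13 ± 0.12, adjusted p = 2.90e-17). TGFB1, the ligand best known for inducing SNAI1, had the same order of groups as SNAI1. It had 125 ± 11.1 CPM in the controls, 90.5 ± 4.88 CPM at 2.5 µM and 143 ± 8.02 CPM at 5 µM. It was higher at 5 µM than in the controls (0.20 ± 0.06, adjusted p = 0.00193 by edgeR, libraries overlapping) and lower at 2.5 µM (-0.46 ± 0.06, adjusted p = 2.33e-08). Its 2 steps differed by 1.13 ± 0.10 (adjusted p = 5.60e-11), where 48.6% of all genes had unequal steps in either direction. The share of all genes with the same order of groups as SNAI1 was not counted. Whether TGFB1 acted on SNAI1 was not tested.

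SNAI1 protein is short-lived: the kinase GSK3B marks it for ubiquitin ligases such as BTRC, and deubiquitinases and nuclear transport receptors act against or on it. RNA alone was measured here. Of 39 genes of this turnover, 36 were tested, and 9 were higher and 18 lower at 5 µM over control (median -0.11), beside 38.7% and 39.4% of all genes. Scaled by library size, 13 were higher and 12 lower. Of all genes called, 58.3% were higher with that scaling and 49.6% with the main one, so the counts of all genes moved with the scaling as well. PSMD14, the deubiquitinase of the proteasome lid that is known to spare SNAI1, fell (-1.06 ± 0.06, adjusted p = 4.80e-18 by edgeR), as did the import receptor KPNB1 (-0.71 ± 0.04, adjusted p = 3.46e-17) and GSK3B itself (-0.27 ± 0.05, adjusted p = 3.35e-05). CREBBP, whose acetylation of SNAI1 is known to shield it, rose (0.95 ± 0.05, adjusted p = 2.31e-18).

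The repressors act through corepressors, and all 35 of the listed ones and dimer partners were tested. At 5 µM over control 19 were higher and 14 lower, with a median of 0.16, where 78.2% of all genes were called. CTBP1, the corepressor that ZEB1 recruits, fell to 53.4 ± 3.77 CPM at 5 µM, against 113 ± 5.86 CPM in the controls (-1.08 ± 0.06, adjusted p = 7.75e-18 by edgeR). PARP1, which is known to bind SNAI1, fell as well (-0.79 ± 0.04, adjusted p = 1.12e-17). KAT2B, an acetyltransferase that ZEB1 can recruit in place of CTBP1, rose (1.63 ± 0.08, adjusted p = 1.54e-18).

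Of 26 listed factors that are known to hold cells epithelial, 25 were in the table, but only 13 had enough reads to be tested. At 5 µM over control 10 of the 13 were higher and 1 lower (median 1.01), beside 38.7% and 39.4% of all genes. Of the 13, 3 were under the filter's level in every control library and so had to differ. Neither the count nor the median is therefore a measure of the whole list. OVOL2, a zinc finger repressor of ZEB1 that reached that level in 2 of 4 controls, had 12.5 ± 1.19 CPM at 5 µM and 0.581 ± 0.295 CPM in the controls (4.45 ± 0.21, adjusted p = 1.57e-19 by edgeR). The epithelial splicing regulator ESRP2, a known target of ZEB1 repression, rose 2.01-fold (1.01 ± 0.06, adjusted p = 6.62e-17), and the ETS factor ELF3 rose 1.78-fold (0.83 ± 0.06, adjusted p = 3.10e-14). EHF was the 1 that was lower (-3.26), and KLF4 (0.12) and KLF5 (0.04) were not called. The other factors linked to EMT, 27 of 40 tested, were higher in 15 and lower in 8 (median 0.39), of which 2 were under the filter's level in all controls. Among them ID2, an inhibitor of helix-loop-helix dimers, rose (3.72 ± 0.10, adjusted p = 1.40e-25), while its relatives ID1 (-1.52 ± 0.05, adjusted p = 7.21e-23) and ID3 (-1.22 ± 0.05, adjusted p = 6.52e-21) fell.

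Of 36 listed epithelial genes that these repressors are known to silence, 32 were tested. At 5 µM over control 13 were higher and 13 lower with a median of 0.01, shares near the 38.7% and 39.4% of all genes; 3 of the 32 were under the filter's level in every control library, CDH1 among them. CDH1 (ENSG00000039068) had 62, 52, 70 and 69 counts at 5 µM, against 6, 6, 4 and 2 in the controls, a log2 fold change of 3.70 ± 0.27. It reached the filter's level in 4 of 4 libraries at 5 µM and 0 of 4 controls, so it had to differ and no p is given. At 2.5 µM, where SNAI1 was lower and SNAI2 higher than in the controls, CDH1 had 8, 12, 15 and 23 counts, all above the controls as well (1.50 ± 0.37). Whether any of the repressors acted on CDH1 was not tested. SPINT1, an inhibitor of membrane serine proteases, was 7.96-fold higher (2.99 ± 0.07, adjusted p = 4.36e-28 by edgeR), and the tight junction gene CGN was higher by 5.32 ± 0.14 (adjusted p = 6.49e-26). KRT19 fell to 51.4 ± 2.14 CPM at 5 µM, against 203 ± 20.0 CPM in the controls (-1.99 ± 0.06, adjusted p = 4.16e-24).

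The element bound by SNAI and ZEB proteins is the E-box CAGGTG, read on either strand as CAGGTG or CACCTG, a subset of the general E-box CANNTG. It was searched in RefSeq promoter windows on GRCh38.p14, 250 bases before to 50 after a gene's start. Of 36 listed targets, 21 had a window in that table, and 15 of these held the element, beside 24.1% of 27305 genes and 20.6% of 35116 windows. The list was made of genes already known as targets, so this share describes the list and tests nothing. Of the 15, 6 were higher and 5 lower at 5 µM over control, 3 were not called and 1 was not tested. Of the 6 without it, 1 was higher and 3 lower, and 2 were not called.

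The 2 targets with most copies, CRB3 and CLDN7, held 5 each, and 29 genes in all had a window with 5 or more. CRB3 encodes the Crumbs protein of the apical domain, and CLDN7 a claudin of the junctions. Their windows are shown because SNAI and ZEB proteins are known to act on such elements there, with each E-box in capitals.
CRB3, chr19:6464021-6464320, plus strand: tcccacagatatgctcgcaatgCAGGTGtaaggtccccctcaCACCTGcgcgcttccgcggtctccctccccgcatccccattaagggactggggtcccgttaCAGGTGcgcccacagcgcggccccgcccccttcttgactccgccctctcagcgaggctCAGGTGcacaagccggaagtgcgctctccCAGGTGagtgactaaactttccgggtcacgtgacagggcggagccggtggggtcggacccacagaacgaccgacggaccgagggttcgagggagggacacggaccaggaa
CLDN7, chr17:7262429-7262728, minus strand: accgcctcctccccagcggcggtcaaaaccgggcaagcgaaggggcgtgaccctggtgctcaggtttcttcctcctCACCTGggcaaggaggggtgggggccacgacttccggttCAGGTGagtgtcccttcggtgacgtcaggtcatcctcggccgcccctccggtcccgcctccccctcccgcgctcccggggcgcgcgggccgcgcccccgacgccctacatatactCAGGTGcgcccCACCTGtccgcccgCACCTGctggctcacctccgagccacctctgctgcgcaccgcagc
CRB3 had 25.7, 26.1, 28.2 and 28.4 CPM at 5 µM, against 5.47, 5.20, 7.25 and 6.35 CPM in the controls (2.17 ± 0.10, adjusted p = 6.44e-20 by edgeR). At 2.5 µM, where SNAI1 was lower and SNAI2 higher, CRB3 was higher too, with 14.4, 15.5, 15.6 and 14.9 CPM (1.33 ± 0.10 over control, adjusted p = 8.53e-13). Whether a repressor acted on CRB3 was not tested. CLDN7 had 53.8, 46.1, 47.6 and 45.4 CPM at 5 µM, against 53.0, 43.9, 46.0 and 37.7 CPM in the controls, which overlapped (0.09 ± 0.07, adjusted p = 0.266, 0.0365 without control replicate 1 and 0.00889 when scaled by library size). At 5 µM over 2.5 µM, where it had 41.5 ± 0.382 CPM, CLDN7 was higher (0.21 ± 0.07, adjusted p = 0.0118 by edgeR, libraries apart), and missed the threshold without replicate 1 of 5 µM (adjusted p = 0.0621). At 2.5 µM over control it differed by -0.12 ± 0.08 (adjusted p = 0.159, and 0.0167 without control replicate 4). The 2 windows with equal numbers of E-boxes thus belong to a gene that rose at both doses and to one that was called between the doses and at neither dose against control. CLDN7 has another window in that table, chr17:7263164-7263463, with 0 E-boxes. The last 50 bases of the CRB3 window were not found near the start of any GENCODE transcript of CRB3, whereas those of both CLDN7 windows were found in CLDN7 transcripts.

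Of the repressors themselves, ZEB1, ZEB2 and TWIST2 had windows in the table. The single windows of ZEB2 and TWIST2 held no CAGGTG, and 2 of the 7 windows of ZEB1 did. The one with 3 copies is shown, since ZEB1 is itself known to be induced by SNAI1 and TWIST1.
ZEB1, chr10:31318966-31319265, plus strand: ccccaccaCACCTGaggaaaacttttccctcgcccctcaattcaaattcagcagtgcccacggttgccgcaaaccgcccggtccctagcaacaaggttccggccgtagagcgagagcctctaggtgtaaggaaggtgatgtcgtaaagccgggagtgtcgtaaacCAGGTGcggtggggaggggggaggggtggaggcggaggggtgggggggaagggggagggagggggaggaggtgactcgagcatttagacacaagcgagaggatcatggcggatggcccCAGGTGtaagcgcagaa
A match is not a bound site, and the absence of these letters from a window says nothing on what binds there.

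Mesenchymal genes are the other side of the EMT programme. Of 33 listed, 21 were tested, and 7 were higher and 11 lower at 5 µM over control (median -0.13), beside 38.7% and 39.4% of all genes. With no filter on low counts, which lets in more of the 33, 12 were higher. That fit called 15618 genes in all, against 13165 with the filter, so its count is not to be read beside these shares. Of the 21, 1 was under the filter's level in every control library and so had to differ. VIM, the intermediate filament gene that marks mesenchymal cells, fell to 1282 ± 26.4 CPM at 5 µM, against 1892 ± 119 CPM in the controls (-0.56 ± 0.04, adjusted p = 1.64e-13 by edgeR), and at 2.5 µM it was at 2018 ± 41.6 CPM. Fibronectin (FN1, -0.34 ± 0.05, adjusted p = 3.00e-07) and the collagen crosslinking enzyme LOX (-1.42 ± 0.05, adjusted p = 1.15e-21) fell, while smooth muscle actin ACTA2 (4.04 ± 0.07, adjusted p = 2.65e-30) and the receptor PDGFRB (1.86 ± 0.12, adjusted p = 4.91e-16) rose. CDH2, which encodes N-cadherin, differed by -0.06 ± 0.04 at 5 µM (adjusted p = 0.221), with the sign turned when scaled by library size (0.08). At 2.5 µM CDH2 was higher (0.27 ± 0.04, adjusted p = 8.59e-07), as was SNAI2.

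**Figure D5:**
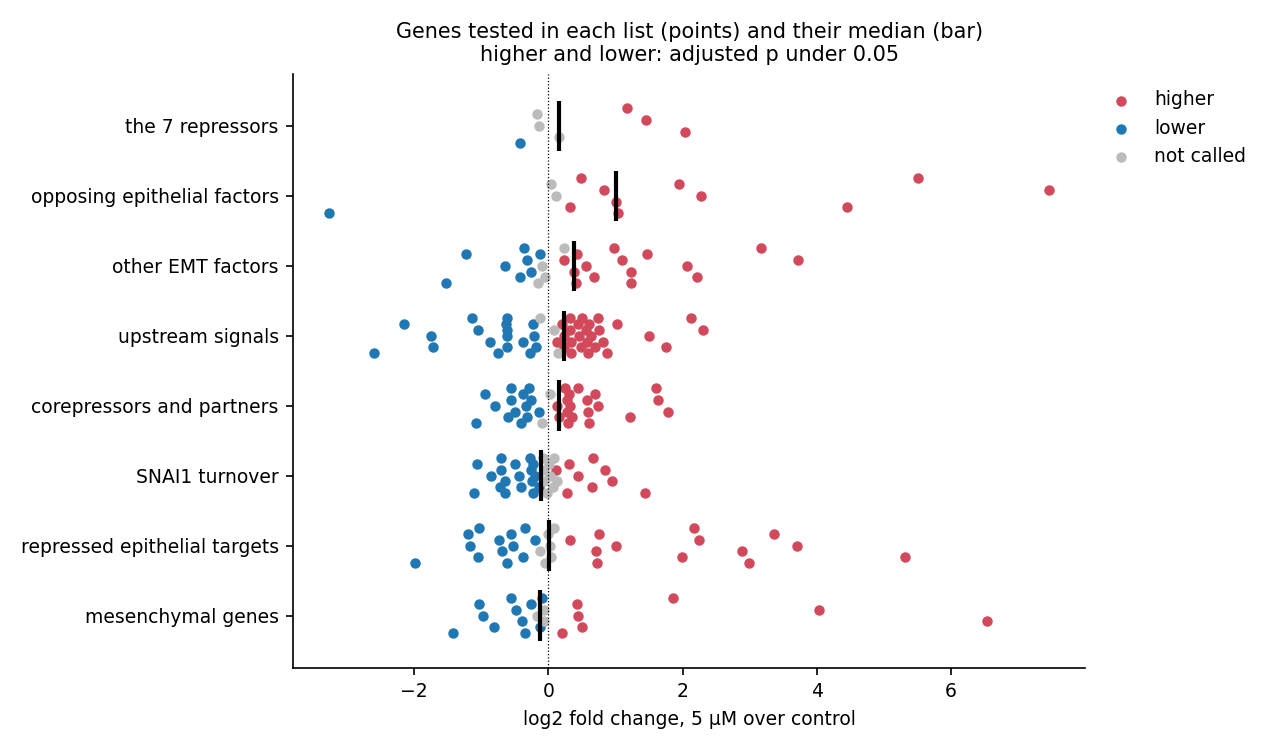
Log2 fold change at 5 µM over control of every tested gene in the 8 groups named (points), coloured by call, with each group's median as a bar. The 7 repressors have a median of 0.16, the opposing epithelial factors 1.01, and the repressed epithelial targets and mesenchymal genes 0.01 and -0.13. Of the genes tested in these groups, 1, 3, 3 and 1 were under the filter's level in every control library and had to differ. The medians are therefore no measure of the whole lists.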

How the data were processed

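Poly-A RNA was made into libraries with a strand-marking TruSeq kit and sequenced on a NextSeq500, per the labels' protocols. The authors deposited raw read counts per Ensembl gene as whole numbers in 1 table, without normalization. Per the submitters' processing notes, which name tools without their roles, the build was GRCh37 and the tools were STAR 2.4.1d, featureCounts 1.4.6, edgeR 3.8.6, cutadapt 1.7.1, SAMtools 1.1, Bowtie2 2.2.4, bedtools 2.17.0 and Cufflinks 2.1.1. The sources used here give no strand setting, handling of multi-mapped reads or annotation release. Symbols and exon lengths came from GENCODE 29 on GRCh38, so the coordinates printed are those of GRCh38 and not of the build used for counting.

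From these counts, filterByExpr (10 counts at the median library size, 4 libraries) kept 16839 genes. They were fitted with edgeR 4.0.16 in R 4.3.3 (TMM scaling, robust quasi-likelihood, 3 groups, 12 libraries, 9 residual degrees of freedom, two-sided). Benjamini-Hochberg adjustment ran over all genes tested, with a threshold of 0.05. The biological coefficient of variation was 5.43%. CPM use the TMM-scaled library size, and SE is the absolute log2 fold change over the root of F. Intervals are at 95% by the normal distribution, and so are narrower than the F test implies. Ratios within a library add 0.5 to each count. The steps were also run on simulated data with known answers.

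Of 66 pairs of libraries, 0 were identical, and chi-square over degrees of freedom was 1.66 to 5.41, above what sampling alone gives. Nothing in the labels says more than that the replicates are biological, so p-values measure the spread between these libraries. Alternatives were other scalings (RLE, upper quartile, library size), filters (none, and 10 counts in 4 libraries), DESeq2 1.42.0, limma 3.58.1 voom, the 2 groups compared alone, a replicate block and each library left out. The 7 genes, the gene lists (303 of 305 entries matched) and the tests were chosen with earlier results of these data known. Named genes were the 7, their antisense genes and copies, the 3 with the smallest p at 5 µM per list, 6 fixed EMT genes and the 3 of most like pattern per repressor. CRB3 and CLDN7 were added for their number of E-boxes, after values had been seen.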

Additional observations from a re-analysis of the deposited data

Results flagged for a closer look

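In the 2.5 µM group, SNAI1 was at 2.53 CPM in replicate 2, while the other 3 libraries lay at 2.85 to 2.89 CPM. This library was set apart from a close cluster by a gap that made up most of the group's range, past Dixon's 95% critical value for 4 libraries. Of 30 groups of libraries tested in this way, 1 was past that value, and chance alone gives about 1 in 20.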

How the results depend on the processing

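Over 21 alternatives, 4 to 5 of the 7 repressors were called at 5 µM over control, 2 to 4 at 2.5 µM over control and 5 to 6 at 5 µM over 2.5 µM, and 3 to 4 had unequal steps. SNAI1 kept its direction and call in all of them, with 1.07 to 1.31 at 5 µM over control and -1.08 to -0.86 at 2.5 µM over control. Replicate numbers did not pair the libraries: the correlation of deviations between same-numbered libraries was -0.13 to 0.07, and 1 of 12 libraries correlated best with its own number. With a replicate block 13091, 9828 and 11423 genes were called in the 3 comparisons, against 13165, 9957 and 11526 without, and the counts of called repressors were 4, 3 and 5 with it. In the paired form of the ratio tests with that block the differences stayed at 1.30 and -1.43 for SNAI1 over SNAI2, 1.60 and -1.05 for SNAI1 over ZEB1 and 0.58 for TWIST1 over ZEB1 at 5 µM, with p = 0.125 in each exact test, the smallest p that 4 pairs allow. Signs turned for differences that had not passed: ZEB1 at 2.5 µM over control (-0.0056 to 0.177 with single libraries left out, negative without control replicate 3), the steps of SNAI3 (-1.17 to 0.35 with single libraries left out), the steps of TWIST1 (-0.0849 to 0.0728 with single libraries left out, -0.0133 with no filter on low counts) and CDH2 at 5 µM over control (0.0792 by library size). The cause was not tested. In the 2-group fits the comparison of steps could not be made, and SNAI3 at 2.5 µM over control was under the filter. SNAI3 and TWIST2, with 12 and 53 counts in the controls, are the repressors that depth limits most.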
